A study of Mus musculus with 15 samples.

Results

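Mesp1, Mixl1, Evx1, Fgf8, Aplnr, Lhx1 and Gsc are genes switched on when pluripotent cells enter the primitive streak, and they were followed here across 5 mouse embryonic stem (ES) cell lines on expression arrays. All probe sets annotated to 8 named genes were sought. Of these, 7 genes with 9 probe sets were found among the 18193 genes that the array's annotation names through a probe set of 1 symbol. Aplnr and Lhx1 had 2 probe sets each. No probe set carried the symbol T (the gene of the T-box factor brachyury) in the annotation used, so T was not analysed here.

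Total RNA from each line was measured on 3 arrays, 15 in all. FpB6CBA and FpB6D2 are parthenogenetic lines, grown from oocytes that matured in cultured preantral follicles of B6CBAF1 females (C57BL6 mother, CBA/Ca father) and of B6D2F1 females (C57BL6 mother, DBA2 father), and activated without sperm. OpB6D2 is a parthenogenetic line from blastocysts of the same B6D2F1 hybrid. R1 is an established, purchased line from a cross of the substrains 129S1/SvImJ and 129X1/SvJ. NmB6D2 came from normal fertilisation, with C57BL6 mothers and DBA2 fathers. Each group is 1 cell line, so a difference between groups is a difference between 2 lines and cannot be told apart from strain, derivation or culture history. Nothing in the labels says that the 3 arrays of a line came from separate cultures. The p-values therefore measure the spread between these arrays, which may be technical.

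The primitive streak is where epiblast cells of the gastrulating mouse embryo become mesoderm and definitive endoderm, and mesendoderm names the cells on that path. WNT, NODAL and BMP signals open the programme, with T-box and homeobox factors acting early and Mesp1 marking the nascent mesoderm that gives rise to the heart. ES cells grown as pluripotent cultures are known to hold these genes low until they differentiate.

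In R1, 6 of the 7 genes stood far above all other lines: Mixl1, Evx1, Lhx1, Mesp1, Fgf8 and Aplnr. Gsc was near the low end of the scale in all 5 lines. In bulk RNA like this, more cells of a type and more RNA per cell cannot be told apart. Values are log2 expression values as deposited, and the median of all values on all arrays, 3.864, served as the limit below which a probe set was treated as having no measured level. In the 4 lines other than R1, the line means of the 8 probe sets of those 6 genes lay between 2.65 and 4.28, around or under that limit. Where a line mean lay under it, a fold change is given as a lower bound against it.

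By the actin control, R1 lay with OpB6D2 and NmB6D2. The 3'-minus-5' difference of the actin control probe sets was 0.66 to 0.76 in FpB6CBA, 0.62 to 0.65 in FpB6D2, 0.50 to 0.55 in OpB6D2, 0.52 to 0.55 in R1 and 0.48 to 0.53 in NmB6D2 (log2). Correlations across probe sets were 0.992 to 0.998 between arrays of the same line and 0.917 to 0.978 between arrays of different lines. The pluripotency factors were present in every line: Pou5f1 averaged 11.71 in R1 and 11.46 in NmB6D2, and Sox2 averaged 11.26 in R1 and 10.96 in NmB6D2. Nanog averaged 9.81 in FpB6CBA, 11.39 in FpB6D2, 11.29 in OpB6D2, 10.98 in R1 and 10.43 in NmB6D2.

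The promoters of 3 members are shown because they cover the outcomes seen: Mesp1 and Lhx1 were high in R1 and Gsc was not. Each runs 5′ to 3′ from 250 bases before to 50 bases after the annotated start, which follows base 250, in RefSeq sequence on GRCm38.p6. The windows lie at chr7:79793541-79793840 for Mesp1, chr11:84525485-84525784 for Lhx1 and chr12:104473187-104473486 for Gsc, all on the minus strand. Capitals mark matches to the motifs searched on both strands: AGGTGTGA for T-box factors, TCAAAG for TCF/LEF (the nuclear partners of WNT signalling), AATCCACA for FOXH1 (a partner of NODAL signalling) and TAATCC for GSC.
Mesp1: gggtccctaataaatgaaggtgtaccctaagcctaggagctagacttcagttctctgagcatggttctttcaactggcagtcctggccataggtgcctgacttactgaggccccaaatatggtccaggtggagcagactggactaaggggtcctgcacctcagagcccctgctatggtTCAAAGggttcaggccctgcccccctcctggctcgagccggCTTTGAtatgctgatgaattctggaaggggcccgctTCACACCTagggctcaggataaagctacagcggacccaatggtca
Lhx1: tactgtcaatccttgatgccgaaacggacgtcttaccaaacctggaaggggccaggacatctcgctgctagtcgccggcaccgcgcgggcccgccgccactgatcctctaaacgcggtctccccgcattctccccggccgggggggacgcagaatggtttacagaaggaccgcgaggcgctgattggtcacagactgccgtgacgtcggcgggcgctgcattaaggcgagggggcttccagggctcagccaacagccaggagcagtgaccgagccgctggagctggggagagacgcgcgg
Gsc: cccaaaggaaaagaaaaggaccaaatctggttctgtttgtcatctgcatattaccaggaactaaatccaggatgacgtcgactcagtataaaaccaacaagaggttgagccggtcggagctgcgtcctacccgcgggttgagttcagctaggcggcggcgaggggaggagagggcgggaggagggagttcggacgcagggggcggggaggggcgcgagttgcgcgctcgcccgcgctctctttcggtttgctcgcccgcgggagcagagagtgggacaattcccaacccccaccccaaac
The Mesp1 window held the T-box motif at bases 256 to 263 on its minus strand, and the TCF/LEF motif at bases 179 to 184 and, on the minus strand, at 220 to 225. The Evx1, Lhx1 and Gsc windows held none of the 4 motifs. Among 32851 promoter windows of 300 bases, 1.28% held the T-box motif, 16% the TCF/LEF motif, 1.73% TCF/LEF 2 or more times, 0.855% the FOXH1 motif and 7.06% the GSC motif. The windows also differed in base composition: GC content was 55.3% with 4 CpG in Mesp1, 65.7% with 31 CpG in Lhx1 and 60.3% with 25 CpG in Gsc, beside medians of 52.7% and 7 CpG over all windows. Windows were found for 4 of the 7 genes.

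Mixl1 (chromosome 1, 180693043 to 180697034, RefSeq gene on GRCm38.p6, as for the genes after it) encodes a paired-type homeobox factor of the streak, needed for mesoderm and endoderm to form in order. Its probe set read 3.84, 3.74 and 3.72 in FpB6CBA, 3.74, 3.68 and 3.39 in FpB6D2, 3.41, 3.42 and 3.50 in OpB6D2, 6.88, 6.72 and 6.86 in R1 and 3.31, 3.43 and 3.51 in NmB6D2. The lowest R1 array lay well above every other array, and the other lines were all under the limit. R1 averaged 6.82 ± 0.09 (SD, n = 3) and was at least 7.77-fold above each other line. A limma F test of any difference among the 5 lines gave a Benjamini-Hochberg adjusted p of 1.2e-12 in the filtered fit. That fit held probe sets that reached the limit on at least 3 arrays, and Mixl1 did so on its R1 arrays only. Without the filter the same limma F test gave an adjusted p of 1.5e-13. The p-values given for single genes below are from the filtered fit unless stated. The 4 other lines had no measured level, so no fold among them is given. FpB6CBA read above NmB6D2 by log2 0.35 (limma adjusted p = 0.0054) and above OpB6D2 by 0.32 (limma adjusted p = 0.0064). Both differences were under the 2-fold minimum that a call required.

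Evx1 (chromosome 6, 52313498 to 52318389), the even-skipped homologue of the posterior streak, read 3.42, 3.43 and 3.89 in FpB6CBA, 4.30, 4.02 and 4.35 in FpB6D2, 3.29, 3.45 and 3.48 in OpB6D2, 6.94, 7.49 and 7.18 in R1 and 3.43, 3.67 and 3.33 in NmB6D2. R1 did not overlap any other line, and FpB6D2 was the only other line with all 3 arrays above the limit. R1 averaged 7.20 ± 0.27 and was at least 7.88-fold above each other line (limma F test over the 5 lines, adjusted p = 1e-10). FpB6D2, next in order at 4.22 ± 0.18, was at least 1.28-fold above NmB6D2 (limma adjusted p = 0.00081), above OpB6D2 (limma adjusted p = 6e-04) and above FpB6CBA (limma adjusted p = 0.0025), whose means were under the limit. The measured log2 differences behind these tests were under the 2-fold minimum that a call required.

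Lhx1 (chromosome 11, 84517975 to 84525534) encodes a LIM homeobox factor of the node and the anterior streak. Its first probe set read 6.44, 5.53 and 6.88 on the R1 arrays, while the 12 arrays of the other lines ran from 2.95 to 3.31 with a median of 3.12. Its second read 2.69, 2.79 and 2.83 in FpB6CBA, 2.85, 2.70 and 2.64 in FpB6D2, 2.64, 2.53 and 2.79 in OpB6D2, 7.51, 7.58 and 7.15 in R1 and 2.61, 2.80 and 2.70 in NmB6D2. Both put R1 apart from the rest, but they ordered the R1 arrays differently, since the array lowest by the first was highest by the second. R1 was at least 5.35-fold above each other line by the first (limma F test without the filter, adjusted p = 6.7e-09). By the second it was at least 11.7-fold above (limma F test without the filter, adjusted p = 1.9e-14).

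Gsc (chromosome 12, 104471209 to 104473236), the organizer homeobox gene goosecoid, read 3.43, 3.23 and 3.23 in FpB6CBA, 4.29, 3.46 and 3.71 in FpB6D2, 3.28, 3.50 and 3.25 in OpB6D2, 3.69, 3.42 and 3.86 in R1 and 3.24, 3.34 and 3.13 in NmB6D2. R1 overlapped all 3 parthenogenetic lines here and lay just above NmB6D2, and a single array, of FpB6D2, reached the limit. Gsc was left out of the filtered fit. Fitted without the filter, the limma F test over the 5 lines gave an adjusted p of 0.023 and the comparison of R1 with NmB6D2 one of 0.063. In that fit FpB6D2 differed from NmB6D2 by 0.58 (limma adjusted p = 0.012) and from OpB6D2 by 0.48 (limma adjusted p = 0.043). FpB6CBA differed from FpB6D2 by -0.52 (limma adjusted p = 0.023), and FpB6D2 from R1 by 0.16 (limma adjusted p = 0.49). These differences were under the 2-fold minimum. All 5 line means were under the limit, the highest being 3.82 ± 0.43 in FpB6D2, so no fold is given, and no comparison was called.

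Mesp1 (chromosome 7, 79792241 to 79793590), the basic helix-loop-helix factor of nascent cardiac mesoderm, read 4.00, 3.88 and 4.65 in FpB6CBA, 4.25, 4.10 and 4.49 in FpB6D2, 4.21, 4.13 and 3.96 in OpB6D2, 8.71, 8.84 and 8.49 in R1 and 4.11, 3.81 and 4.28 in NmB6D2. The 4 other lines overlapped one another. R1 averaged 8.68 ± 0.18 (SD, n = 3) against 4.07 ± 0.23 in NmB6D2, a 24.5-fold difference (log2 4.62, SE 0.18, limma adjusted p = 5.9e-11). Each parthenogenetic line lay below R1, FpB6CBA 22.7-fold, FpB6D2 21.1-fold and OpB6D2 24-fold.

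**Figure D1:**
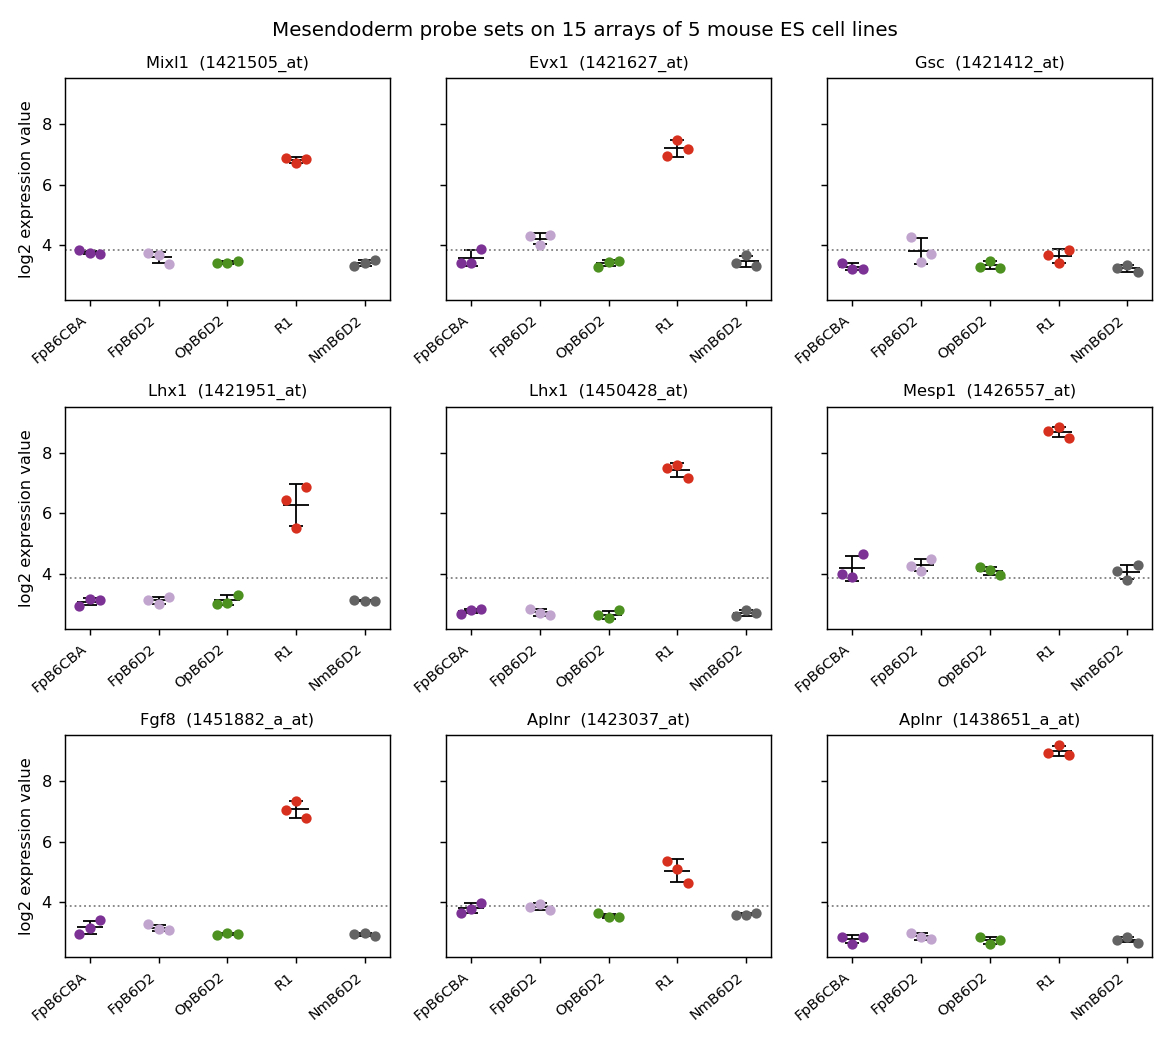
Log2 expression value (vertical axis) of the 9 probe sets of 7 mesendoderm genes in FpB6CBA, FpB6D2, OpB6D2, R1 and NmB6D2. Points are arrays, bars are the mean and SD of 3 arrays, and the dotted line marks 3.864, the median of all values; R1 stands above every other array in 8 panels, and not in the panel of Gsc.

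Fgf8 (chromosome 19, 45736491 to 45742941) encodes the FGF ligand that lets mesoderm cells leave the streak. Its probe set read 2.96, 3.15 and 3.41 in FpB6CBA, 3.28, 3.11 and 3.09 in FpB6D2, 2.93, 2.99 and 2.97 in OpB6D2, 7.06, 7.35 and 6.79 in R1 and 2.95, 2.98 and 2.90 in NmB6D2. All 12 arrays of the other lines were under the limit. R1 averaged 7.07 ± 0.28 and was at least 9.21-fold above each other line (limma F test without the filter, adjusted p = 5.9e-13).

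Aplnr (chromosome 2, 85136360 to 85139923) encodes the receptor of the peptides apelin and ELABELA, which guides mesodermal cells in gastrulation. Its brighter probe set read 2.86, 2.62 and 2.86 in FpB6CBA, 3.00, 2.84 and 2.78 in FpB6D2, 2.86, 2.62 and 2.74 in OpB6D2, 8.94, 9.18 and 8.86 in R1 and 2.77, 2.84 and 2.67 in NmB6D2. R1 averaged 8.99 ± 0.17, at least 35-fold above each other line (limma F test without the filter, adjusted p = 5.1e-16). The dimmer one read 3.65, 3.77 and 3.99 in FpB6CBA, 3.85, 3.96 and 3.73 in FpB6D2, 3.64, 3.50 and 3.51 in OpB6D2, 5.38, 5.11 and 4.63 in R1 and 3.58, 3.59 and 3.66 in NmB6D2. Both separated R1 from every other array, but they disagreed in size, since the dimmer one gave at least 2.19-fold (limma F test without the filter, adjusted p = 7.2e-07).

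The count of member probe sets has to be read beside all probe sets. 8 of the 9 passed the filter. In 5 of them only the R1 arrays reached the limit. The dimmer Aplnr probe set also needed its R1 arrays to pass, since 3.99 and 3.96 were its only other values at the limit. The count over those that passed is therefore not used as support. In the fit without a filter over 45037 probe sets, 8 of 9 were called in every comparison with R1, and all 8 were called higher in R1 than in each of the 4 other lines, as were 1.61% of all probe sets. In that fit 9.83% of all probe sets were called in FpB6CBA against R1, 7.2% in FpB6D2 against R1, 5.27% in OpB6D2 against R1, 6.97% in R1 against NmB6D2 and 17.6% among the 5 lines. In the filtered fit over 24524 probe sets the shares were 17.8% in FpB6CBA against R1, 13.1% in FpB6D2 against R1, 9.55% in OpB6D2 against R1, 12.7% in R1 against NmB6D2 and 31.9% among the 5 lines. All 3 R1 arrays exceeded all 12 others for 8 of 9 members and 9.72% of all probe sets. With line means under the limit set to it, the median log2 difference between R1 and NmB6D2 was 3.20 over the 9 and 0.00 over all 45037 probe sets. The members, and the gene lists below, were chosen with earlier results of these data known. Their counts beside the shares of all probe sets or genes are therefore a description.

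**Figure D2:**
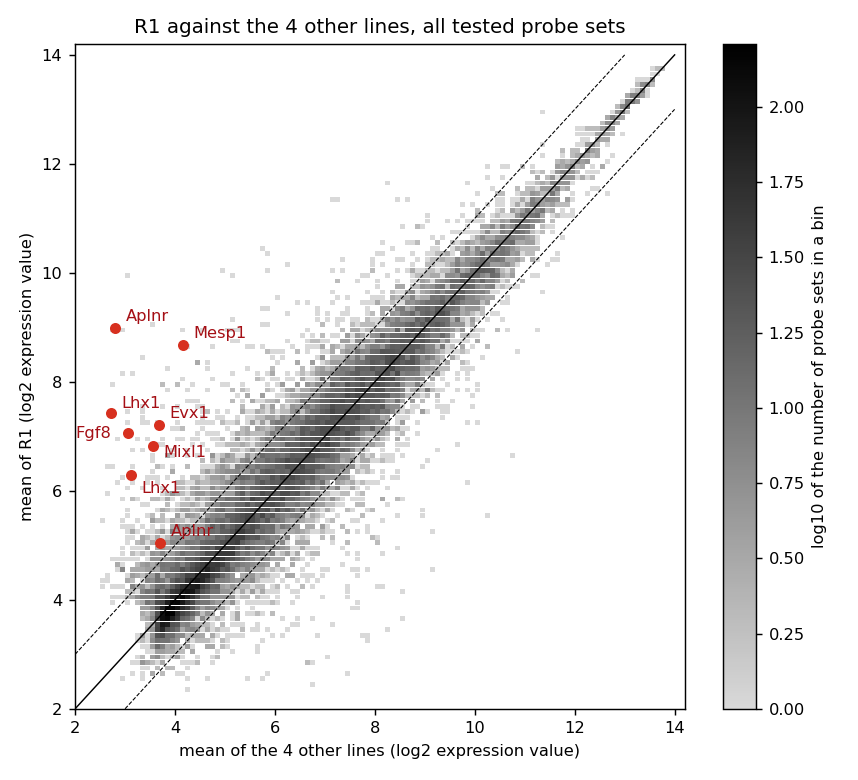
Mean log2 expression value of R1 (vertical) against the mean of the 4 other lines (horizontal) for 24524 tested probe sets, binned and shaded by log10 of the number of probe sets in a bin. Red points are the 8 tested mesendoderm probe sets, the solid line marks equality and the dashed lines a 2-fold difference. The red points lie above the upper dashed line. In 5 of them only the R1 arrays reached the filter value, and the dimmer Aplnr probe set also needed its R1 arrays to pass.

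Among the 4 lines without R1 there are 6 pairs, and 0 of 9 member probe sets was called in any of them (limma fit without a filter). At an unadjusted p under 0.05 the counts were 2 of 9 in each of the 3 pairs with FpB6D2, 1 in FpB6CBA against OpB6D2 and against NmB6D2, and 0 in OpB6D2 against NmB6D2. Of all 45037 probe sets, from 14326 (OpB6D2 against NmB6D2) to 18676 (FpB6CBA against OpB6D2) passed that threshold in the 6 pairs. By the rule for calls, with adjusted p and the 2-fold minimum, the share of all probe sets called was 5.49% in FpB6CBA against FpB6D2, 5.38% in FpB6CBA against OpB6D2, 2.36% in FpB6CBA against NmB6D2, 2.22% in FpB6D2 against OpB6D2, 5.56% in FpB6D2 against NmB6D2 and 2.96% in OpB6D2 against NmB6D2. Without the 2-fold minimum, in the filtered fit, 1 member passed in 5 of those pairs: Evx1 in the 3 pairs that hold FpB6D2, and Mixl1, with both line means under the limit, in FpB6CBA against NmB6D2 (limma adjusted p = 0.0054) and against OpB6D2 (limma adjusted p = 0.0064). Of all 24524 tested probe sets, 11192 to 14324 passed in those 5 pairs on the same basis. Gsc was not in that fit. Without the filter it too had a limma adjusted p under 0.05 in the 3 pairs that hold FpB6D2, with its line means under the limit. In the comparison of the 3 parthenogenetic lines with the 2 fertilised lines, fitted on line means, 0 members and 0% of all probe sets were called by limma, with 0 members and 1816 probe sets at an unadjusted p under 0.05.

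The genes around the members were examined through lists of the pathways that act on the streak, with 1 probe set per gene, in the fit without a filter, so that every listed gene on the array is counted. Of 28 transcription factors and related genes of the streak and nascent mesoderm, 9 were higher and 1 was lower in R1 than in NmB6D2, and 8 were higher in R1 than in all 4 other lines. Among all 18193 genes, 5.27% were higher and 3.87% lower in R1 than in NmB6D2, and 2% were higher in R1 than in all 4. With means under the limit set to it, the list's median difference between R1 and NmB6D2 was 0.28, beside 0.00 over all genes. Mesp2 (difference 0.50) and Msgn1 (0.12) were not called, and Tbx6 was under the limit in all 5 lines. Sp5, a zinc-finger factor induced by WNT, averaged 7.98 in R1 and 4.07 in NmB6D2 (difference 3.91, SE 0.10). Eomes (an early streak T-box factor) differed by 2.59 and Dll3 (a Notch ligand of presomitic mesoderm) by 2.82. Hand2 (a heart and limb mesoderm factor) was at least 10.3-fold higher in R1, since its NmB6D2 mean was under the limit. The gene that was lower was Hand1, at 4.48 in R1 and 7.25 in NmB6D2. Tbx3 was higher in R1 than in NmB6D2 by 2.93 but stood at 9.41 in FpB6D2, above R1's 8.81.

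Of 16 genes of definitive endoderm and the organizer, 7 were higher and 0 lower in R1 than in NmB6D2, and 4 were higher in R1 than in all 4 lines, again in the fit without a filter. Their median difference, with means under the limit set to it, was 0.36. Cxcr4, a chemokine receptor of endoderm and mesoderm, averaged 8.16 in R1 and 2.92 in NmB6D2, at least 19.6-fold. Dkk1, a secreted WNT inhibitor, averaged 8.25 in R1 and 3.77 in NmB6D2, at least 21-fold. Nog, a BMP antagonist, was at least 2.55-fold higher and Foxa1, a forkhead factor, at least 2.61-fold. The organizer genes did not move as a block: Chrd, another BMP antagonist, differed by -0.07 (limma adjusted p = 0.77), and Cer1, at 4.06 in R1 and 3.71 in NmB6D2, was not called. Foxa2 was at least 1.82-fold higher in R1 than in NmB6D2 and Sox17 differed by 1.94, and both also stood high in FpB6CBA, where Foxa2 averaged 5.49 and Sox17 averaged 6.31.

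Of 17 WNT genes, 4 were higher and 1 was lower in R1 than in NmB6D2: the ligand Wnt5a was at least 7.07-fold higher, the ligand Wnt3 at least 1.28-fold, and Axin2, a feedback target, differed by 2.02, while Porcn, the acyltransferase that lets WNT ligands be secreted, differed by -2.42. Wnt3, at 4.22 in R1, reached the limit on fewer than 3 arrays and would not pass the filter. Notum, also called higher, averaged 6.56 in R1 and 5.45 in NmB6D2, but stood at 7.14 in FpB6D2 and 6.76 in OpB6D2. Of 15 NODAL genes, 3 were higher and 0 lower, with differences of 3.32 for Fst (an activin-binding inhibitor) and 1.60 for Lefty1 (a NODAL inhibitor). Nodal itself averaged 9.52 in R1 and 9.21 in NmB6D2. Of 15 BMP genes, 7 were higher and 0 lower, 5 of them above all 4 lines, with the ligand Bmp2 at least 8.48-fold higher and differences of 3.81 and 2.75 for the target homeobox genes Msx2 and Msx1, 1.36 for the mediator Smad1 and 1.10 for the target Id1. With means under the limit set to it, median differences were 0.23 in the WNT list, 0.09 in the NODAL list and 0.92 in the BMP list, beside 0.00 over all genes.

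Of 21 FGF ligands, receptors and feedback genes, 6 were higher and 3 lower in R1 than in NmB6D2, with a median of 0.28 on the same basis. Il17rd and Spry4, feedback inhibitors, differed by 1.35 and 1.25, and the receptor Fgfr3 differed by -1.88. Fgf15, another ligand, differed by 1.67. Spry4 and Fgf15 were each called higher in R1 than in only 2 lines. Of the 11 genes of the apelin receptor axis, with a median of 0.69 on the same basis, 4 were higher and 0 lower: Apela, Arrb1, Klf2 and Klf4. Apela, which encodes the ligand ELABELA, averaged 8.68 in R1 and 6.14 in NmB6D2 (difference 2.54, SE 0.09), and Arrb1, a receptor-binding arrestin, was at least 2.89-fold higher; both were above all 4 lines. Klf2 and Klf4, also counted in the pluripotency list, were each called higher in R1 than in only 2 lines. Klf4 averaged 10.60 in R1, 10.91 in FpB6D2 and 10.77 in OpB6D2. Apln, which encodes apelin, averaged 5.49 in R1 and 4.80 in NmB6D2, below the 2-fold minimum.

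**Figure D3:**
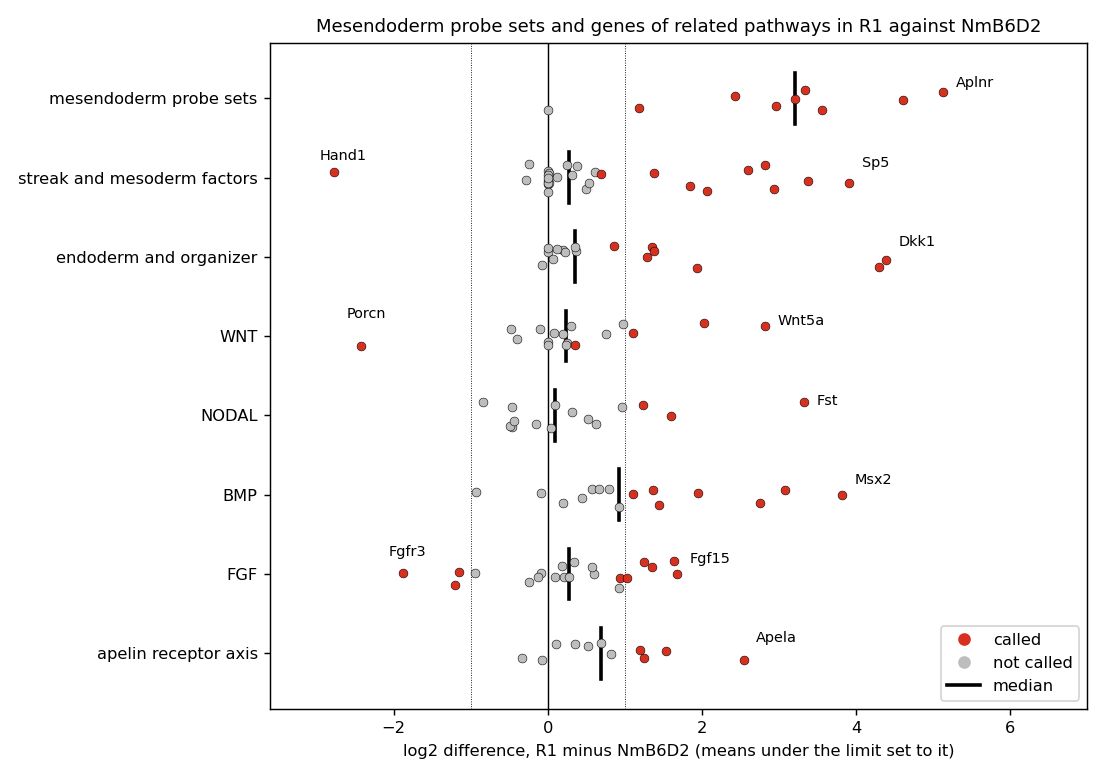
Log2 difference, R1 minus NmB6D2 (horizontal axis), for the 9 mesendoderm probe sets and the genes of 7 lists on the array (rows), with line means under the limit of 3.864 set to it. Red points are called, grey points are not, black bars are medians and dotted lines mark a 2-fold difference, inside which a called point is one shortened by the limit. The member row has a median of 3.20, and the BMP row has the highest of the 7 lists shown at 0.92. The marker lists are not drawn, and the fibroblast list among them has a median of 1.22.

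Other cell types were checked with marker lists. Of 15 fibroblast markers, 9 were higher and 0 lower in R1 than in NmB6D2. Their median difference, with means under the limit set to it, was 1.22, against 0.92 in the BMP list. Their summed linear values were 4820 to 6055 in FpB6CBA, 5758 to 6010 in FpB6D2, 6953 to 9344 in OpB6D2, 13650 to 14325 in R1 and 3991 to 4357 in NmB6D2. Vim and Fn1 made up 77.4% to 78.5% of the R1 sum and 70.5% to 71.2% of the NmB6D2 sum. Without them the sums were 1612 to 2056 in FpB6CBA, 1872 to 1986 in FpB6D2, 1941 to 2812 in OpB6D2, 2965 to 3204 in R1 and 1167 to 1280 in NmB6D2. The markers did not all run one way: Col3a1 and Col1a1 were higher in R1 than in all 4 lines, Thy1 and S100a4 were lower in R1 than in the 3 parthenogenetic lines, and Ccl2 was lower in R1 than in 2 lines. Lum was under the limit in all 5 lines. Of 10 cardiac mesoderm genes, 3 were higher: Actc1 (cardiac actin) was at least 17.3-fold higher, and Gata4 differed by 2.89 and Myl7 (an atrial light chain) by 2.71. Gata4 is also counted in the primitive endoderm list, and Myl7 averaged 6.90 in FpB6CBA beside 7.71 in R1. Nkx2-5 averaged 5.19 in R1 and 5.17 in NmB6D2. Myh6, Myh7, Tnnt2, Nppa, Tbx5 and Mef2c were under the limit in all 5 lines. The median difference of the cardiac list, with means under the limit set to it, was 0.00. Actc1, Myl7 and Gata4 had the highest R1 means of the list and weigh most in its R1 sum. The summed linear values of the cardiac list were 262 to 301 in FpB6CBA, 153 to 166 in FpB6D2, 137 to 148 in OpB6D2, 698 to 749 in R1 and 155 to 173 in NmB6D2. The part of such cells in the result was not tested.

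Other lists had calls in both directions or few calls. Counts of genes higher and lower in R1 than in NmB6D2 were 6 and 2 of 15 pluripotency genes, 3 and 4 of 12 primed epiblast genes, 5 and 1 of 14 primitive endoderm genes, and 1 and 4 of 12 trophectoderm genes. They were 1 and 0 of 10 neuroectoderm genes, and 1 and 0 of 11 blood and endothelium genes, the 1 being Kdr. Some called genes count in more than 1 list. Eomes (the higher trophectoderm gene), Hand1 (1 of the lower), Tbx3 and Kdr are also in the streak list. Sox17 is in both endoderm lists. With means under the limit set to it, median differences were 0.89 in the pluripotency list and 0.12 in the primed epiblast list. They were 0.41 in the primitive endoderm list, -0.66 in the trophectoderm list, and 0.00 in the neuroectoderm list and in the blood and endothelium list. Zfp42, a marker of naive pluripotency, was higher in R1 than in all 4 lines, at 11.36 in R1 and 8.69 in NmB6D2. Dppa3 was lower than in all 4, at 4.81 in R1 and 7.84 in NmB6D2.

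**Figure D4:**
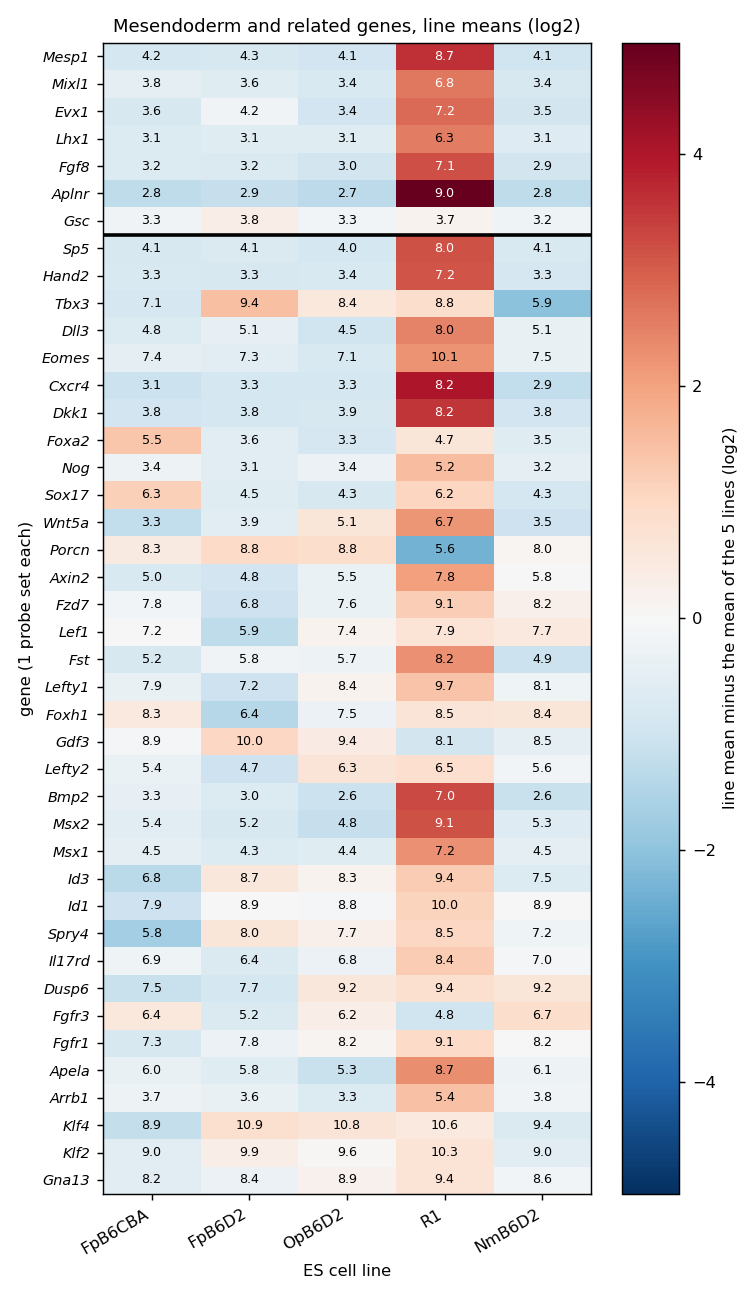
Line means (log2 expression values, printed in the cells) of the brightest probe set of each mesendoderm gene, above the thick line, and of genes named from the 7 lists, below it, in the 5 lines (columns). Colour gives the line mean minus the mean of the 5 lines (log2); the R1 cell is the highest of its row for 6 of the 7 mesendoderm genes, and the lowest for Porcn, Gdf3 and Fgfr3.

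The genes whose values ran most like each member over the 15 arrays were named by Pearson's r among 4066 candidate genes. All of these correlations are set by R1 standing apart, and arrays of a line share its cells, so r is a description. For Aplnr the closest were Asb4 (r = 0.998), Dkk1 (0.998), Gbp2b (0.997) and Hand2 (0.997). For Fgf8 they were Aplnr (0.996), Asb4 (0.996), Dkk1 (0.995) and Mesp1 (0.995), and for Mesp1 they were Fgf8 (0.995), Aplnr (0.994), Asb4 (0.993) and Sp5 (0.992). For Mixl1 they were Aplnr, Gbp3 and Usp18 (0.993 each) and Dpys (0.992). For Lhx1 they were Gbp3 (0.986), Alox15 (0.985), Them4 (0.983) and Sp5 (0.983), and for Evx1 they were Vstm2b (0.991), Trpm1 (0.990), Zfp334 and S100a3 (0.988 each). Gbp3, Gbp2b and Usp18 are known as interferon-induced genes. Among the 15 pairs of the 6 called genes, r ran from 0.946 to 0.996 over the 15 arrays and from -0.27 to 0.65 over the 12 arrays without R1, lower in every pair. Among the 6 pairs with Gsc, r ran from 0.321 to 0.443 over the 15 arrays and from 0.07 to 0.74 over the 12, higher in 3 pairs and lower in 3.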

How the data were processed

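Total RNA was labelled with biotin and hybridised to Affymetrix arrays. The deposited series table holds 1 column of log2 values for each of 15 arrays. RMA and affy are named in the submitters' processing notes without versions; the log base is not given in the sources used here and was inferred from the range of 1.99 to 13.96. Genes were named from the platform annotation, updated through gene identifiers: of 45037 probe sets that are not controls, 34945 carried 1 symbol (34741 matched by identifier), 932 several and 9160 none, and none was named from the last 2 kinds.

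A probe set was tested if it reached 3.864 on at least 3 arrays (24524 tested, 20513 left out). limma 3.58.1 in R 4.3.3 fitted 1 mean per line over all arrays. The 10 pairs of lines and an F test were examined, and the mode of origin was fitted on 5 line means. Gene lists were counted in a fit of all 45037 probe sets without this filter. Calls needed a Benjamini-Hochberg adjusted p under 0.05 over all tested probe sets and a 2-fold difference. The fit was tested on simulated data. The number of arrays limits the precision. The members and gene lists were chosen with earlier results of these data known. All probe sets of the members are named, as are the 4 most similar genes of each called member and up to 5 genes of each list by the range of line means. Hand1, Mesp2, Msgn1, Tbx6, Foxa1, Chrd, Cer1, Nodal, Smad1, Wnt3, Notum, Fgf15, Fn1, Thy1, S100a4, Lum, Myh6, Myh7, Tnnt2, Nppa, Tbx5 and Mef2c fall outside that rule and were chosen after their values were seen. Normalisation, filter, variance model, probe set choice, thresholds and left-out arrays were varied.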

Additional observations from a re-analysis of the deposited data

How the results depend on the processing

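Of 348 recomputed counts of called members, 340 stayed within 1.5 times the reported one, and of 1145 recomputed member differences 1137 kept their direction and their call and 0 reversed. The exceptions follow. With no minimum difference, 1 member probe set (0 otherwise) was called in FpB6CBA against FpB6D2, FpB6CBA against OpB6D2, FpB6CBA against NmB6D2, FpB6D2 against OpB6D2 and FpB6D2 against NmB6D2. Of all 24524 tested probe sets, 11192 to 14324 were called in those pairs. Gsc was not among the tested probe sets. With a replicate block over the 13 arrays whose titles carry a number, 1 member probe set was called in FpB6D2 against OpB6D2. Same-numbered arrays did not deviate together (12 pairs, correlation of deviations from line means -0.19 to 0.12), and the block changed no other count of members. Leaving out the NmB6D2 line gave 6 called members in the comparison of parthenogenetic with fertilised lines (0 with it), with R1 then the only fertilised line. Leaving out R1, an alternative chosen after seeing the data, gave 0 called members among the 4 remaining lines (8 among the 5), and accounts for the other 8 differences. Without any 1 array, the R1 comparisons called 8 members each and the other comparisons 0. With 1 value per gene, 6 genes were called in each R1 comparison, since 2 genes have 2 probe sets. Counts over all probe sets moved more than 1.5 times in 4 alternatives: among the 5 lines 7835 became 4211 with 1 probe set per gene, 3058 with the mean of all probe sets of a gene, where fewer features were tested, 20542 with no minimum difference and 4923 among the 4 lines without R1; in R1 against NmB6D2 3105 became 1651, 1182 and 14452 under the first 3 of these. Signal over background limits Gsc, which was tested only without the filter and not called there, the dimmer Aplnr probe set, which a filter at 5 removes, and every fold that rests on a line mean under the limit.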
